A study of Mus musculus with 24 samples.

Results

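Small nucleolar RNAs (snoRNAs) were followed through RNA sequencing of P815, a mouse mastocytoma line, that is, a line of tumour cells of the mast cell lineage. A gene was taken as a member when the deposited table typed it as snoRNA and listed it at 1 FPKM or more (fragments scaled by transcript length and library size) in at least 3 of the 24 libraries, and 1 further entry was left out by the rule. This gave 144 members of 1507 snoRNA entries, of which 395 had a count, and of 55385 genes in all. By the start of their symbols, 25 members were Snora genes, 41 were Snord genes and 78 had other names, mostly predicted Gm symbols. The members were chosen by their FPKM in these same libraries, so their levels over the 24 libraries are a description.

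The study compared 8 groups of 3 libraries each. P815 cells were given a vector coding for a short hairpin RNA specific to Esr1, the gene of estrogen receptor alpha (SH), the same with β-estradiol (SH_E2), the estrogen receptor antagonist ICI-182780 (fulvestrant) without (ICI) or with β-estradiol (ICI_E2), tamoxifen without (Tamo) or with β-estradiol (Tamo_E2), or a negative control vector with (NC_E2) or without β-estradiol (NC). The medium was RPMI-1640 with fetal bovine serum at 10%. A treatment time of 24 h is given for 6 of the 8 groups and none for SH and NC. No dose is stated, no untransfected or vehicle-only group is labelled, and the ICI and Tamo cells are not labelled as carrying a vector. An arm is used below for a pair of groups without and with β-estradiol (E2), 6 libraries in all. Whether a group's libraries came from separate cultures is not stated, so p-values rest on a spread between samples that may be technical only.

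Libraries held 42.1 to 68.8 M estimated counts. The line's lineage was visible in the receptor gene Kit (98.3 to 174.5 FPKM), the protease gene Cpa3 and the transcription factor gene Gata2, whereas the IgE receptor genes Ms4a2 and Fcer1a were at most 1.20 and 0.937 FPKM, and markers of T cells and hepatocytes (Cd3e, Alb) had medians at the value listed for no reads. Esr1, the target of the hairpin, was low, with 0.246 ± 0.0572 FPKM in the SH arm and 0.328 ± 0.0998 FPKM in the NC arm (SD, n = 6 each). Its log2 fold change of -0.48 ± 0.25 (SE) did not pass (edgeR adjusted p = 0.319), so the label SH is used for the vector and not for a measured loss of Esr1.

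snoRNAs are short RNAs that work in protein complexes in the nucleolus. Box C/D snoRNAs (Snord genes) guide the methylation of riboses, and box H/ACA snoRNAs (Snora genes) guide the conversion of uridine to pseudouridine, mainly in ribosomal RNA, while a few such as U3, U14 and U17 take part in cleaving the precursor of ribosomal RNA. In mammals most lie in introns of host genes, often genes of ribosomal proteins and translation factors or non-coding hosts such as Gas5 and Snhg1, and are released when the host intron is spliced out and trimmed.

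The box motifs are shown in 5 of the most abundant members, chosen because they hold a large part of the snoRNA signal. Here and below, capitals mark TGATGA (box C without its leading purine) within the first 20 bases and CTGA (box D) within the last 20 bases, or ACA placed 3 bases before the end, read on the RNA strand of GENCODE vM21 transcripts for GRCm38. Gm22357 lies in Gas5 (chr1:161036057-161036139, plus strand) and Gm24452 in Snhg1 (chr19:8724531-8724602, plus strand). Snora70 lies in Rpl10 (chrX:74272484-74272620, plus strand), Snora41 in Eef1b2 (chr1:63179004-63179135, plus strand) and Snord104 (chr11:106500993-106501062, plus strand) in no annotated host on its strand.
Gm22357: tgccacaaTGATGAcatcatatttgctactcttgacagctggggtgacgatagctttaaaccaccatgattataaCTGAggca
Gm24452: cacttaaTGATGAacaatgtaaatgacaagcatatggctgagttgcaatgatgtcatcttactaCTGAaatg
Snord104: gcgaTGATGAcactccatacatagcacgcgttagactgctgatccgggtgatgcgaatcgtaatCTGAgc
Snora70: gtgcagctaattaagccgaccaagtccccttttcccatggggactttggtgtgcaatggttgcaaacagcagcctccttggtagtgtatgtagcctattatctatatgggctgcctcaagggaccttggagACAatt
Snora41: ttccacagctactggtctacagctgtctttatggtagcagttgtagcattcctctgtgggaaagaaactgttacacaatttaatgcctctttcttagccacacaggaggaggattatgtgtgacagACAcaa

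The next sequences belong to members whose level differed between arms or between replicate numbers in the results below. Snora31 lies in Tpt1 (chr14:75847905-75848034, plus strand), Snora57 in no annotated host (chr19:8888538-8888685, minus strand), Gm23201 in Zfas1 (chr2:167064998-167065086, plus strand), Snora24 in Snhg8 (chr3:123507937-123508066, minus strand) and Gm25835 in Eif4a1 (chr11:69668852-69668995, minus strand).
Snora31: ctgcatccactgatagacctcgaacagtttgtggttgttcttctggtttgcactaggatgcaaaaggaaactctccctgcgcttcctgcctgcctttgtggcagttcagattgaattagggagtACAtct
Snora57: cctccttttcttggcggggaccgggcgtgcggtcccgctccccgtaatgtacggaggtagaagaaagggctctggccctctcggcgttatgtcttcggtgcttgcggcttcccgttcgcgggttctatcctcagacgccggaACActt
Snora24: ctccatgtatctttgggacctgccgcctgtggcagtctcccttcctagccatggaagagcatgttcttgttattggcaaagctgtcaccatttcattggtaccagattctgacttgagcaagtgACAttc
Gm23201: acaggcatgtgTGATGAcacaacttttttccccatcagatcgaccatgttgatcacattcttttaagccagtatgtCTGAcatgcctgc
Gm25835: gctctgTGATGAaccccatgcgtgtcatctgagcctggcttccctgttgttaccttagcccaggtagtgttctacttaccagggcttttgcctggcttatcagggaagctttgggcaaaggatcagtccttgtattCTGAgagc

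The last set holds 3 members that were found at 2 separate levels and a pair of near copies. Snord12 lies in Zfas1 (chr2:167065276-167065365, plus strand), downstream of Gm23201. Snord100 lies in Rps12 (chr10:23785750-23785823, minus strand) and Gm25894 in Snhg1 (chr19:8724251-8724325, plus strand). Gm25894 held neither the C/D pair nor ACA at its place and is printed without capitals, though CTGA alone lies near its end. Snord14c (chr9:40803583-40803668, plus strand) and Snord14d (chr9:40803995-40804080, plus strand) sit in Hspa8, the gene of a constitutive chaperone, and differ at 2 of 86 bases.
Snord12: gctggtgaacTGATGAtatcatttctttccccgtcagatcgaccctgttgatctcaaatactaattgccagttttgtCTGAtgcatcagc
Snord100: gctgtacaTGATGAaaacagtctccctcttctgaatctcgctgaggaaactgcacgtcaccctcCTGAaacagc
Gm25894: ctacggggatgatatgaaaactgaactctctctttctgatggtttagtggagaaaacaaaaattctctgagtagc
Snord14c: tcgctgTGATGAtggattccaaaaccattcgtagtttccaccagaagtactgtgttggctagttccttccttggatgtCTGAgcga
Snord14d: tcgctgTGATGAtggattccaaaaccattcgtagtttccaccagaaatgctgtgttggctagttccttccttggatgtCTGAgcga

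The motifs followed the name classes closely for Snora and less so for Snord. ACA at that place was found in 22 of 25 Snora members (88.0%) and in 0 of the 41 Snord members. Both C/D motifs were found in 26 of 41 Snord members (63.4%) and in 0 of the 25 Snora members. Of the 78 members with other names, 20 held the C/D pair, 28 held ACA, 1 held both and 29 held neither the pair nor ACA. Over all 1507 snoRNA entries, 305 (20.2%) held the C/D pair and 272 (18%) held ACA. A match is a description of letters, and no match says only that these letters are not in these windows.

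Members were a larger share of the named classes than of the rest: 59.5% of the 42 Snora entries, 41.8% of the 98 Snord entries and 5.71% of the 1367 other entries met the rule. Member length ran from 35 to 246 nucleotides, with a median of 133 for Snora, 78 for Snord and 125 for other names. A host on the same strand was annotated for 132 members, protein-coding for 109 and non-coding for 23, and 39 members lay in genes of ribosomal proteins. An exon of another gene touched 51 members. The strand protocol is not stated, so reads of a member and of an overlapping exon or antisense gene cannot be told apart.

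The snoRNA signal was small and uneven. All members together took 0.00694% to 0.0122% of a library's counts (median 0.0105%), or 3395 to 7102 estimated counts. Of these, the 2 most abundant members held 21.9%. Between 82 and 108 members per library reached 1 FPKM (median 94), and 47 did so in all 24 libraries (7 Snora, 16 Snord and 24 other). The median of a member's FPKM over the libraries was under 1 for 52 members and 10 or more for 20 members. The 3 classes had similar middle levels, with medians of 1.95 FPKM for Snora, 2.06 FPKM for Snord and 1.76 FPKM for other names. Standard Illumina libraries of total RNA were made, and how well they kept RNAs of this length is not stated, so levels cannot be read as amounts per cell. In bulk RNA, fewer cells with a transcript and less of it per cell cannot be told apart.

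Gm22357, a box C/D member in the growth-arrest transcript Gas5, was the highest of the 144, with a lowest, median and highest library at 110.7, 159 and 197 FPKM. Gm24452, a C/D member in the non-coding host Snhg1, came next with 30.5, 98.9 and 145 FPKM. Both exceeded the median FPKM of their host, 31.5 for Gas5 and 92.6 for Snhg1. That was the case for 7 of the 132 members with a host. The third member with another name, Gm25894 of Snhg1, had a median of 23.1 FPKM but ran from 0.128 to 63.0 FPKM.

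Among Snora members, Snora70 was highest, with 28.7, 41.1 and 52.2 FPKM as lowest, median and highest library. Its host Rpl10 encodes a protein of the large ribosomal subunit. Snora41, in the gene of an elongation factor subunit (Eef1b2), had 18.9, 25.5 and 38.7 FPKM. Snora31, in the growth-linked gene Tpt1, had 5.26, 17.6 and 25.5 FPKM. Snora7a in Rpl32 followed with a median of 16.7 FPKM, and Snora68 with 13.9 FPKM. Snora7a was not steady: it is 1 of the members at 2 separate levels described below. It was at 2.93 to 22.7 FPKM in 18 libraries and at 0.210 to 0.452 FPKM in the others. The ranges of Snora31, Snora7a and Snora68 overlapped, so their order was not separated by the spread over libraries. The group mean of Snora70 was highest in ICI_E2 at 43.6 ± 7.88 FPKM and lowest in SH at 31.1 ± 2.50 FPKM (SD, n = 3 each).

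Among Snord members, Snord104 was highest, with 11.1, 18.3 and 27.0 FPKM as lowest, median and highest library. Snord49a, Snord49b and Snord65, all within the non-coding host 2410006H16Rik, had medians of 15.9, 11.8 and 9.60 FPKM, and Snord80 of Gas5 had 14.2 FPKM. These 5 ranges overlapped between neighbours. The group mean of Snord104 was highest in Tamo at 24.6 ± 2.04 FPKM and lowest in SH_E2 at 15.9 ± 1.78 FPKM (SD, n = 3 each), and no comparison below called it.

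**Figure D1:**
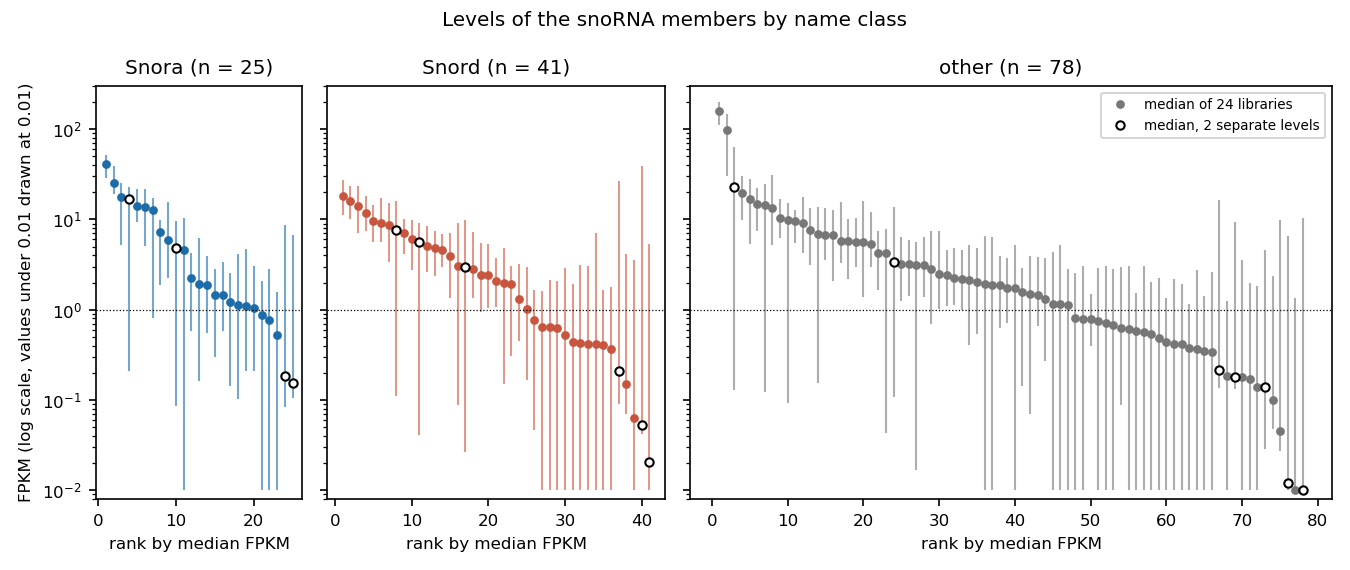
Median FPKM of each of the 144 members over 24 libraries (points) with its lowest and highest library (lines), ranked within the classes Snora, Snord and other, on a log axis with values under 0.01 drawn at 0.01. The dotted line is 1 FPKM, the open points are members found at 2 separate levels, and Gm22357 and Gm24452 lead the other names at 159 and 98.9 FPKM.

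The plot of medians and ranges shows long lower tails in all 3 classes. Many lower ends sat at the value 0.0001 FPKM that the table lists where a count is 0, and 13.5% of the 3456 member values had a count of 0 or 1. At the threshold of the rule, the third-highest library was 1.01 FPKM for Gm22027, 1.05 FPKM for Rnu3b4 and 1.06 FPKM for Snord15a, which are members. It was 0.956 FPKM for Gm24091, 0.953 FPKM for Gm25945 and 0.946 FPKM for Rnu3b1, which are not. Rnu3b1 and Rnu3b4 are copies of U3, needed for the early cleavages of the ribosomal RNA precursor, and are identical in sequence, so the authors' counting may have split their reads.

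Members with known roles in processing the ribosomal RNA precursor lay on either side of the median of 1.91 FPKM over the 144. U17 is encoded by Snora73a and Snora73b, both in Snhg3, which differ at 7 of 205 bases. Their medians were 1.95 FPKM and 4.55 FPKM. The U14 genes of Hspa8 had medians of 5.56 FPKM for Snord14e, 0.430 FPKM for Snord14c and 0.414 FPKM for Snord14d. Snord14e is also 1 of the members at 2 separate levels, at 1.67 to 9.23 FPKM in 21 libraries and at most 0.0506 FPKM in the others. Because Snord14c and Snord14d are near copies, the split between them is uncertain. Within Rpl13a, whose snoRNAs are known from work on lipid-induced stress in rodent cells, Snord34, Snord32a and Snord35a had medians of 9.20, 7.12 and 3.91 FPKM. Snora64, in the ribosomal protein gene Rps2, had 7.33 FPKM. Snord118, Snord13 and Snord22 were not among the 144.

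Members of one host often differed in level. There were 31 hosts with 2 or more members, holding 76 of them, and 13 with 3 or more. In Gas5, Gm22357 was at 159 FPKM beside 14.6 FPKM for Gm25789 and 14.2 FPKM for Snord80, an 11.2-fold range. In 2410006H16Rik the range was 1.65-fold and in Eif4a2 1.54-fold. In Zfas1 it was 257-fold, between Gm23201 at 13.5 FPKM and Snord12 at 0.0524 FPKM, though Snord12 was at 10.7 to 39.2 FPKM in 6 libraries. In all, 10 of the 31 hosts had a range over 10-fold. These ranges are of medians and need not be steady differences. In Zfas1, Nop58, Rpl7a, Taf1d, 2410002F23Rik and Ppan the lowest member was found at 2 separate levels, described below, with its median on the low side. In Eef1b2 it was a short Gm26457 entry inside a longer one, and in Hspa8 the near copy Snord14d.

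Sequence sharing limits some of these values. Of the 144 members, 56 had another snoRNA entry of at least 80% identity and 88 had none. A copy of 95% or more elsewhere in the genome existed for 18 members, among them Snora41 and Snora57, and an identical one for Gm22579, Rnu3b4 and Snord50a. How the authors' counting treated reads that fit several copies is not given in the sources used here.

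A set of 17 members (4 Snora, 6 Snord and 7 other) did not spread evenly over the libraries but stood at 2 separate levels. They were picked after their values were seen, by a gap of at least 5-fold between neighbouring libraries with at least 3 libraries on either side and the upper side at 1 FPKM or more, and get no test. Snord12, a C/D member, was at 32.6 FPKM in 1 Tamo_E2 library, 33.5 and 39.2 FPKM in 2 Tamo libraries, 32.0 FPKM in 1 ICI_E2 library, 27.5 FPKM in 1 NC_E2 library and 10.7 FPKM in 1 SH_E2 library. In the other 18 libraries it had a listed count of 1 and at most 0.0610 FPKM. Since 39.2 FPKM went with a count of 204, that is less than 1 such count would give, so a listed count of 1 need not be a read. Its host Zfas1 averaged 34.0 ± 4.24 FPKM in the 6 high libraries and 32.3 ± 4.10 FPKM in the 18 low ones (SD), and both ranges overlapped.

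Gm25894, one of the 3 most abundant members with other names, was at 8.97 to 63.0 FPKM in 15 libraries and at 0.128 to 0.178 FPKM, with a count of 1, in the other 9. All 6 libraries of the SH arm were high, against 4 of 6 in the ICI arm, 2 of 6 in the Tamo arm and 3 of 6 in the NC arm. By replicate number, 5 of 8 libraries of replicate 1, 2 of 8 of replicate 2 and 8 of 8 of replicate 3 were high. Its neighbour Gm24452 in the same host showed no such gap. Snord100 of Rps12 was at 10.4 to 26.4 FPKM in 7 libraries, 6 of them with E2 and 1 without, and at most 0.263 FPKM in the other 17. Snora33, also of Rps12, was at 3.92 to 6.72 FPKM in 3 libraries, all numbered replicate 2 and all without E2, and at most 0.287 FPKM elsewhere.

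**Figure D2:**
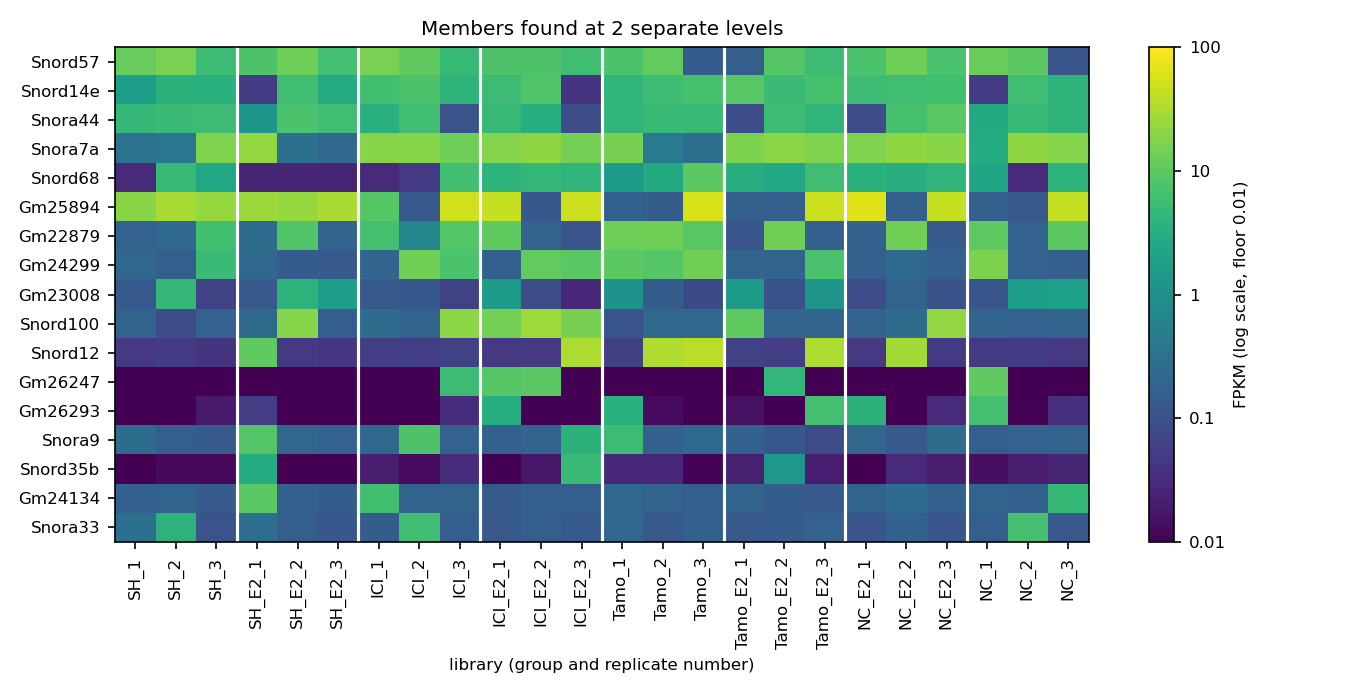
FPKM (colour, log scale with a floor of 0.01) of the 17 members found at 2 separate levels (rows) in each of the 24 libraries (columns, group and replicate number, white lines between groups). High and low libraries sit within the same group for every row; Snord12 is high in 6 libraries and Gm25894 in 15.

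The heat map of these members shows both levels inside single groups. Each of the 17 had at least 1 group that held both a high and a low library, and 71 of the 136 combinations of member and group (52.2%) did. In 13 of the 17 the low side had counts of at most 2. The host's mean FPKM in the libraries where the member was high, divided by that where it was low, ran from 0.719 to 1.22 with a median of 1.0, and host ranges overlapped for all 17. Leaving these 17 members out of the counts below is given in the closing section.

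The effect of E2 was examined as the mean over the 4 arms and in each arm. No member passed. In the mean over the 4 arms, 0 of 144 members had an edgeR adjusted p under 0.05, where 0.0575% of all 12183 genes tested did (7 genes, 0.0492% higher and 0.00821% lower). An unadjusted p under 0.05 was found for 7 members (4.86%), against 2.42% of all genes. The counts were also 0 in SH (background 0.0%, 6 members at an unadjusted p under 0.05), ICI (0.0%, 6 members), Tamo (0.0%, 2 members) and NC (0.0%, 9 members), and DESeq2 and limma called 0 members as well. The median log2 fold change of the members was -0.05 in the mean over arms, against -0.00 for all genes. In the fit without a replicate block, a typical member had an SE of 0.34 on the log2 scale in that mean and 0.67 to 0.70 in single arms. This was about 3 times that of all genes (0.11 and 0.21), so small effects of E2 were not detectable in that fit. The parts of depth and of replicate number in this SE were not tested.

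The abundant members give the tightest view of E2. Gm22357 had a lowest, median and highest library at 111, 161 and 197 FPKM with E2 and at 118, 157 and 193 FPKM without E2, and its log2 fold change was 0.01 ± 0.09 (SE). Gm24452 had 49.1, 101 and 145 FPKM with E2 and 30.5, 98.9 and 136 FPKM without E2, a log2 fold change of 0.15 ± 0.13. Snora70 had 28.7, 40.8 and 52.2 FPKM with E2 and 29.3, 41.5 and 47.6 FPKM without E2, a log2 fold change of 0.06 ± 0.11. The ranges with and without E2 overlapped almost fully for all 3 members.

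The members with the smallest p values under E2 included 6 of the 17 at 2 levels. In the mean over arms these were Snord100 (3.50 ± 0.99 on the log2 scale), Snora33 (-2.41 ± 0.75) and Snord12 (3.57 ± 1.23). In SH they were Snord68 (-3.65 ± 1.36), Gm24134 (3.68 ± 1.51) and Snord53 (-2.75 ± 1.19), and in ICI Snord35b (3.17 ± 1.24), Snora33 (-3.12 ± 1.35) and Snord14c (-1.98 ± 0.87). In Tamo they were Snora62 (-1.26 ± 0.49), Gm23136 (-1.27 ± 0.63) and a 35-nucleotide entry inside the longer Gm26457 (2.72 ± 0.97). The edgeR adjusted p was 1.0 for each of these. In NC, Gm22771 had 0.646, 0.209 and 0.0001 FPKM in NC_E2 libraries against 1.6, 2.84 and 1.21 FPKM in NC libraries (log2 fold change -2.58 ± 0.86). Snord14c had 1.65, 1.01 and 1.87 FPKM in NC_E2 libraries against 0.00121, 0.385 and 0.00161 FPKM in NC libraries (2.38 ± 0.90), at counts of 5 to 11 and of 1 to 3. Gm22027 had a count of 0 in all NC_E2 libraries and of at most 4 in NC libraries, and no fold is given. None of these 3 members passed. Their NC_E2 and NC libraries did not overlap, but they were picked for their small p values, so this adds no support. The share of all genes without such overlap was not counted. When the E2 effect of SH, ICI or Tamo was set against that of NC, edgeR called 0 members and 0 of all genes in each. An unadjusted p under 0.05 was found for 3, 6 and 6 members (2.08%, 4.17% and 4.17%), against 1.14%, 1.08% and 4.06% of all genes.

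The SH arm was set against the NC arm, taking the mean of the differences without and with E2, to see how the vector with the hairpin compared with the control vector. Of the 144 members, 11 passed: 10 were lower in SH and 1 was higher. The share called was 7.64%, against 20.7% of all 12183 genes (10.6% higher and 10.0% lower), and 17.4% of members had an unadjusted p under 0.05, against 31.9% of all genes. The count was 19 with the replicate number as a block, 4 with no filter on low values and 7 with counts divided by 4. The shares of all genes under these alternatives are not given, so whether members moved apart from all genes cannot be read. By class, 2 of 25 Snora, 1 of 41 Snord and 8 of 78 other members passed. Most members leaned the same way: 109 log2 fold changes were below 0 and 35 above, beside 6161 below and 6022 above for all genes. The median was -0.35 for the members and -0.00 for all genes (Snora -0.42, Snord -0.21, other -0.40). Summed over all members, the snoRNA share of counts was 0.00847% ± 0.000917 in the SH arm, 0.0109% ± 0.00102 in the ICI arm, 0.0109% ± 0.00122 in the Tamo arm and 0.0110% ± 0.00112 in the NC arm (SD, n = 6 each).

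Gm24452 fell most clearly. Its lowest, median and highest library were 30.5, 51.7 and 69.0 FPKM in the SH arm and 102, 112 and 145 FPKM in the NC arm. The arms did not overlap, and the log2 fold change was -1.21 ± 0.19 (edgeR adjusted p = 8.95e-05). The host Snhg1 fell by less, with a log2 fold change of -0.54 ± 0.13 (edgeR adjusted p = 0.00412). Within replicate 1, replicate 2 and replicate 3 the log2 ratios of the SH mean to the NC mean were -1.39, -1.06 and -1.08.

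Snora31 had 5.26, 8.82 and 12.2 FPKM as lowest, median and highest library in the SH arm and 14.7, 19.6 and 24.9 FPKM in the NC arm. The arms did not overlap, and the log2 fold change was -1.19 ± 0.23 (edgeR adjusted p = 0.00084). Its host Tpt1, which encodes a growth-linked protein, had a log2 fold change of -0.15 ± 0.10 (edgeR adjusted p = 0.343). Snora57, named after its values were seen, had 5.04, 7.21 and 9.89 FPKM in the SH arm and 10.9, 13.8 and 20.8 FPKM in the NC arm. It too fell without overlap, by 1.02 ± 0.21 (edgeR adjusted p = 0.00123). Both were lower in SH within each of the 3 replicate numbers, with log2 ratios of -0.98 to -1.43 for Snora31 and -0.55 to -1.26 for Snora57.

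The other called members were rarer or changed less. Gm24336, in Cwf19l1, had 0.0001, 0.261 and 0.879 FPKM in the SH arm and 1.08, 1.5 and 5.26 FPKM in the NC arm, with no overlap (log2 fold change -2.67 ± 0.71, edgeR adjusted p = 0.0107), at counts of 0 to 10 in the SH arm and 11 to 39 in the NC arm. Gm24339, in Cep295, had 0.0001, 0.328 and 0.547 FPKM in the SH arm and 0.203, 2.66 and 4.71 FPKM in the NC arm, with overlap (-2.90 ± 0.82, edgeR adjusted p = 0.0150), at counts of 0 to 4 and 1 to 24. Its call was lost without NC_E2 replicate 2 (edgeR adjusted p = 0.0616). Gm23245, in the chaperonin gene Cct6a, fell by 1.21 ± 0.40 (edgeR adjusted p = 0.0387), and this call was lost when any of 7 single libraries was left out: NC replicate 2 or 3, NC_E2 replicate 2 or 3, SH replicate 1 or 3, or SH_E2 replicate 3.

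Gm22357, the most abundant member, had 111, 147 and 159 FPKM in the SH arm and 153, 172 and 187 FPKM in the NC arm. The arms overlapped slightly, and it fell by 0.36 ± 0.12 (edgeR adjusted p = 0.0422), beside a host Gas5 at -0.15. Gm24494, Snord72 and Gm22579, named after their values were seen, fell by 0.77 ± 0.24, 0.77 ± 0.27 and 0.84 ± 0.29 (edgeR adjusted p = 0.0292, 0.0465 and 0.050). Of their hosts, Rabggtb and Taf1d fell too (-0.74 and -0.43), while Rpl37 was at 0.13. Gm22027 was the only member called higher, at counts of 2 to 8 in the SH arm and of 0 to 4 in the NC arm (log2 fold change 2.91 ± 0.81, edgeR adjusted p = 0.0154). The call was lost with no filter on low values (adjusted p = 0.0539) and with counts divided by 4 (adjusted p = 0.246). Gm22027 reached 1 FPKM in 3 libraries, none of them in the NC arm, so its choice as a member favoured a higher level outside NC. It was also high in the other arms, with medians of 0.580 FPKM in the ICI arm and 0.391 FPKM in the Tamo arm against 0.00522 FPKM in the NC arm, which all 3 comparisons share.

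**Figure D3:**
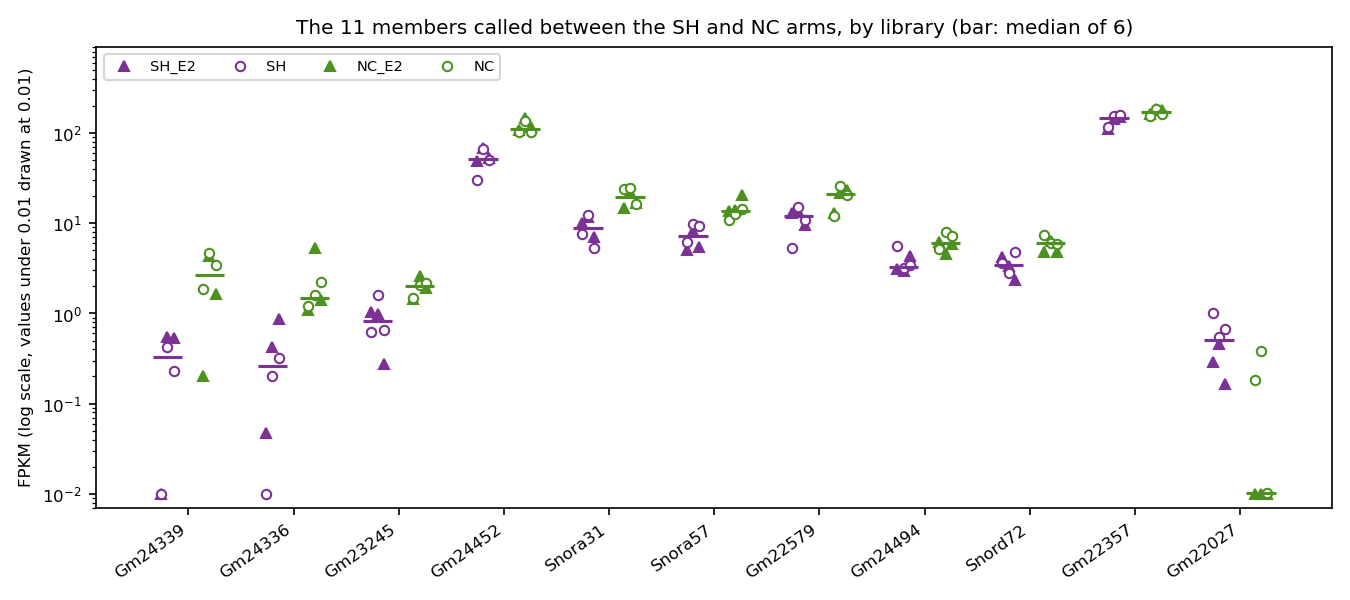
FPKM by library (log axis, values under 0.01 drawn at 0.01) of the 11 members called between the SH arm (purple, left of each name) and the NC arm (green, right), with E2 as filled triangles, without E2 as open circles and bars at the median of 6. Gm24452, Snora31, Snora57 and Gm24336 are lower in every SH library than in every NC library, and Gm22027 has a higher median in SH.

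The plot of the called members shows libraries with and without E2 mixed within each arm. Taken separately, the comparison without E2 called 2 members, Gm24452 (log2 fold change -1.27) and Snora31 (-1.42), with a background of 9.07% (4.92% higher and 4.15% lower). That with E2 called 3, Snora57 (-1.40), Gm24452 (-1.15) and Snord68 (-4.28), a member at 2 levels, with a background of 9.59% (5.3% higher and 4.28% lower). Leaving out 1 library at a time gave 6 to 12 calls, and the 6 came without NC replicate 2, NC replicate 3, NC_E2 replicate 2 or NC_E2 replicate 3. Of the 4 members tested on chromosome 19, 3 were lower in SH (Gm24452, Snora57 and Gm24336), beside 182 of all 450 genes tested there (40.4%), and the part of the chromosome in these members' fall was not tested.

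The hosts and the proteins that make snoRNA complexes were set beside the members. Over all genes tested, 10.0% were lower in SH and 10.6% higher. Of 87 distinct hosts 85 were tested, and 13 were lower in SH and 3 higher, with a median log2 fold change of -0.13. Of these 85 hosts, 69 had a log2 fold change below 0 and 16 above, so the hosts leaned the same way as the members. Of 24 genes of snoRNA proteins, assembly factors and processing factors, 5 were lower and 1 higher. None of the 4 core proteins of box C/D complexes passed. Of the 4 core H/ACA proteins, Nop10 fell by 0.50 ± 0.16 (edgeR adjusted p = 0.0318). Of 9 assembly factors, the ATPase genes Ruvbl1 and Ruvbl2 fell by 0.44 ± 0.14 and 0.36 ± 0.07, and Znhit6, an assembly factor of C/D complexes, rose by 0.50 ± 0.07. Of 7 processing and trafficking factors, the nucleolar chaperone gene Nolc1 fell by 0.70 ± 0.12 and Tent4b, a polymerase that tails H/ACA precursors in human cells, fell by 0.53 ± 0.14.

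**Figure D4:**
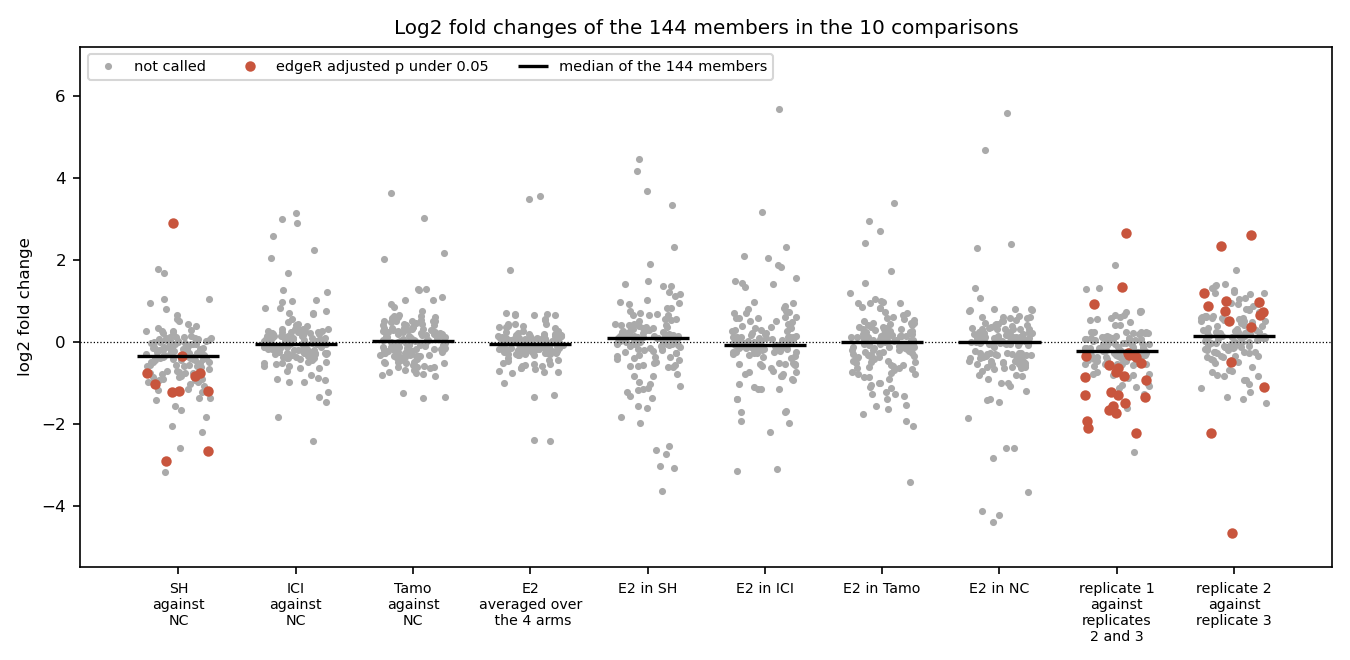
Log2 fold changes of the 144 members (points) in each of the 10 comparisons, with members at an edgeR adjusted p under 0.05 in red and a bar at the median of the members. The median is -0.35 for SH against NC and between -0.07 and 0.10 for the ICI, Tamo and E2 comparisons; 11 members are called for SH, 25 for replicate 1 and 15 for replicate 2 against replicate 3.

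The ICI and Tamo arms were set against the same NC libraries. For ICI, edgeR called 0 of 144 members (0.00821% of all genes), with a median log2 fold change of -0.04. An unadjusted p under 0.05 was found for 7 members (4.86%), against 1.06% of all genes. For Tamo, edgeR called 0 members (0.0% of all genes), with a median of 0.01 and 4 members at an unadjusted p under 0.05 (2.78%, against 2.05% of all genes). DESeq2 and limma called 0 in both. The smallest p values were those of Gm22027 (3.15 ± 0.79 on the log2 scale), Snord50a (2.24 ± 0.75) and Snora9 (3.0 ± 1.16) in ICI, and of Gm22027 (3.02 ± 0.80), Snora2b (1.29 ± 0.51) and Snord12 (3.64 ± 1.61) in Tamo. Their values overlapped between the arms. For Gm24452, the ICI groups averaged 109 ± 21.4 FPKM without and 108 ± 29.8 FPKM with E2 and the Tamo groups 93.6 ± 10.5 FPKM without and 111 ± 19.8 FPKM with E2, against 123 ± 19.9 FPKM in NC_E2 and 113 ± 19.4 FPKM in NC (SD, n = 3 each). None of the 24 genes of snoRNA proteins and factors passed in the ICI, Tamo or E2 comparisons.

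Levels also differed by replicate number, which the labels give and do not explain. Replicate 1 was set against replicates 2 and 3 over all 8 groups, and 25 of 144 members passed (3 higher and 22 lower), or 17.4% against 44.1% of all genes (22.6% higher and 21.5% lower). The median log2 fold change was -0.22 for members and 0.02 for all genes. The snoRNA share of counts was 0.00917% ± 0.00117 in replicate 1, 0.0113% ± 0.00122 in replicate 2 and 0.0105% ± 0.00131 in replicate 3 (SD, n = 8 each). Without Tamo replicate 1, 16 members passed, and with no filter on low values 12.

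Gm23201, a C/D member of Zfas1, had a lowest, median and highest library at 5.19, 7.68 and 11.3 FPKM in replicate 1 and at 11.4, 19.5 and 30.8 FPKM in replicates 2 and 3. The libraries did not overlap, and it was lower by a log2 fold change of -1.21 ± 0.14 (edgeR adjusted p = 2.04e-06). Zfas1 itself was at -0.17 ± 0.08 (edgeR adjusted p = 0.0913). Snora24, an H/ACA member of Snhg8, had 0.799, 7.29 and 8.64 FPKM in replicate 1 and 10.9, 14.3 and 17.0 FPKM in replicates 2 and 3. It did not overlap either (-1.30 ± 0.24, edgeR adjusted p = 0.000249), and Snhg8 was at 0.01 ± 0.07. Neither non-coding host passed, and the difference between member and host was not tested.

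Among abundant members, Gm22357 fell by 0.27 ± 0.06 in replicate 1, Gm24452 by 0.37 ± 0.08 and Snord80 by 0.57 ± 0.11. These 3 are named for their level, and Gm23201 and Snora24 after their values were seen. Those named for the size of their change were Gm26165 (-2.22), Snord23 (-2.10), Gm24339 (-1.94), Gm26394 (-1.73) and Gm22620 (-1.67) among the lower ones, and Gm26293 (2.65 ± 0.74), Rnu3b4 (1.33 ± 0.50) and Gm26109 (0.92 ± 0.31) among the higher ones. Of these, Gm26165, Snord23 and Gm26394 reached 1 FPKM in no library of replicate 1, so the choice of members favoured their direction. Without the libraries of the side where it was higher, a called member would have had fewer than 3 libraries at 1 FPKM in 8 of the 25 cases. Several of these calls were lost when 1 library was left out, for 11 of the 24 libraries with Rnu3b4, 7 with Gm26165 and 5 with Snord23.

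Between replicate 2 and replicate 3, 15 members passed (11 higher and 4 lower in replicate 2), or 10.4% against 19.4% of all genes (10.6% higher and 8.78% lower), with a median log2 fold change of 0.14. With no filter on low values, 5 members passed. Gm25835, a C/D member of the translation factor gene Eif4a1, had 6.78, 8.81 and 15.4 FPKM as lowest, median and highest library in replicate 2 and 3.26, 4.09 and 5.20 FPKM in replicate 3. The libraries did not overlap (1.20 ± 0.21, edgeR adjusted p = 0.00101), while Eif4a1 was at -0.06 ± 0.05. Replicates 2 and 3 did not overlap either for Gm24888 (-1.10 ± 0.31) or for Gm24451 (0.65 ± 0.18), which is named after its values were seen. Gm25894, at 2 levels, had 0.128, 0.157 and 29.7 FPKM in replicate 2 and 23.2, 46.1 and 58.1 FPKM in replicate 3 (-4.68 ± 1.27, edgeR adjusted p = 0.0164). Further named members were Snora33 (2.62 ± 0.64), Gm26109 (2.34 ± 0.39), Gm22571 (0.99 ± 0.25) and Snord91a (0.98 ± 0.25) among the higher ones, and Gm24439 (-2.24 ± 0.68) and Snord49b (-0.49 ± 0.14) among the lower ones. Snora33 reached 1 FPKM in 3 libraries, all of replicate 2, and Gm24439 in 3 libraries, none of replicate 2, so the choice of members favoured these directions. Gm24439 lost its call without 1 library for 5 of the 24: ICI_E2, Tamo or Tamo_E2 replicate 2, or NC_E2 or Tamo replicate 3 (adjusted p of 0.056 to 0.0733). Snord49b lost it without NC_E2 replicate 2 (adjusted p = 0.0503) and Gm24888 without ICI_E2 replicate 3 (adjusted p = 0.0536).

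**Figure D5:**
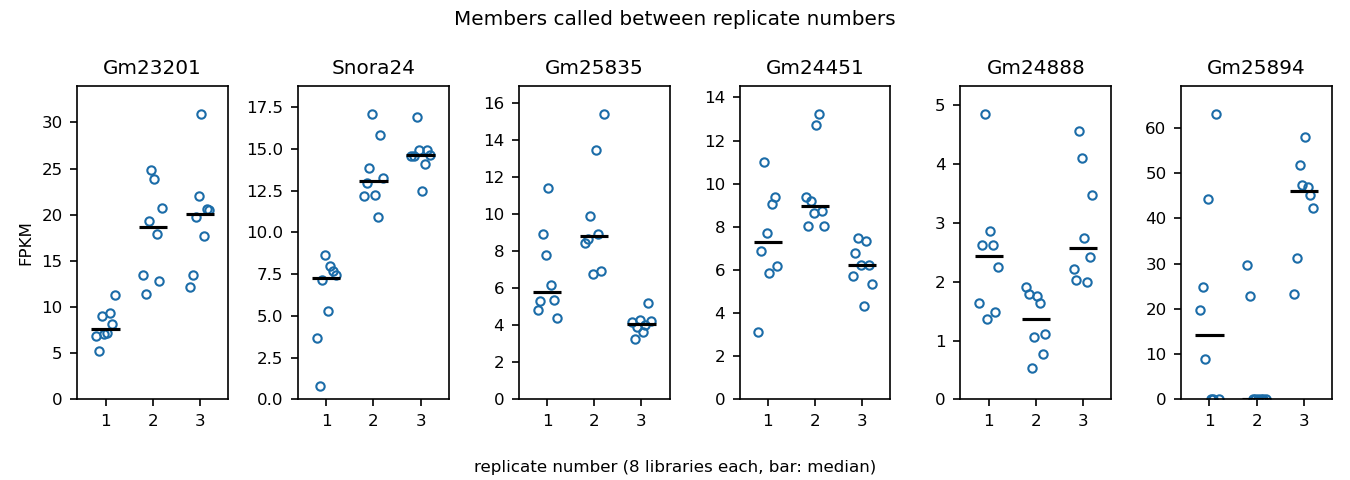
FPKM of 6 members by replicate number (8 libraries each, 1 per group, bar at the median; linear axes that differ between panels). Gm23201 and Snora24 are lower in replicate 1, Gm25835 and Gm24451 are higher in replicate 2 than in replicate 3, Gm24888 is lower in replicate 2 than in replicate 3, and Gm25894 stands at 2 levels in replicates 1 and 2.

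The plot by replicate number holds 1 library of each group at every number, so arm and E2 are balanced within a panel. Over all genes tested, 22.6% were higher and 21.5% lower in replicate 1 than in replicates 2 and 3. Between replicate 2 and replicate 3, 10.6% were higher and 8.78% lower in replicate 2. Of the 24 genes of snoRNA proteins and factors, 2 were higher and 13 lower in replicate 1 than in replicates 2 and 3, and 3 were higher and 7 lower in replicate 2 than in replicate 3. Nolc1 was at -0.33 ± 0.03 in the comparison of replicate 1 and at -0.18 ± 0.03 in that of replicate 2 with replicate 3. Of the 85 hosts tested, 23 were higher and 17 lower in replicate 1, and 5 were higher and 9 lower in replicate 2 than in replicate 3. What the replicate numbers stand for was not tested.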

How the data were processed

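RNA of 24 P815 libraries was read from 1 deposited table. Trimming used cutadapt and alignment to GRCm38 used HISAT2, versions unstated, per the submitters' processing notes. Neither the quantifier nor the annotation nor the handling of reads with several matches is given in the sources used here. What the authors deposited was FPKM and whole-number counts per gene, per the file headers, and 0 columns belong to other samples. The deposited counts were treated as estimated counts (expected counts, already whole), since a listed count of 1 need not be a read, as given above for Snord12. Of values from 1 to 40, 4.11% of those of members and 16.4% of those of other genes were at a count of 4. Because of this share in other genes, an alternative divided counts by 4. The share was lower in members, so for them the division may do no more than lower the counts.

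The 144 members, the lists and the tests were chosen with earlier results of these data known. Genes with 1 FPKM or more in at least 3 libraries (12183) were scaled by TMM and fitted by quasi-likelihood in edgeR 4.0.16 (R 4.3.3) with 8 group coefficients, and tests were two-sided. Replicate numbers were compared in a fit with group and replicate number. Adjusted p values are Benjamini-Hochberg over all genes tested, with a threshold of 0.05. Esr1 fell under this filter, and its adjusted p is over the 28735 genes with a count. SE is the size of the log2 fold change divided by the root of the F statistic, and SD is over libraries. Tables were joined in Python 3.11.15 with pandas 2.3.3.

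Members were named by a rule: the 5 Snora, 5 Snord and 3 other members of highest median FPKM, up to 5 called members of largest change per direction and comparison (or the 3 of smallest p where none passed), the 3 on either side of the threshold, and guides with known roles in processing. Where another member is named, its sentence says that its value was seen first. Hosts were the genes of another type on the same strand that contain the member, from the table's coordinates. Sequences and near copies came from GENCODE vM21 transcripts, with copies counted at 80% identity or more by edit distance.

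Samples with the same replicate number deviated together from their group means in 28 of 30 pairs of libraries at a correlation over 0.1 (lowest 0.0949, highest 0.472). Every pair passed for the E2 comparisons and Tamo against NC, which makes these paired; for SH and ICI against NC, 1 pair each fell short. Alternatives were DESeq2 1.42.0, limma 3.58.1 on log2 of FPKM plus a pseudocount of 1 or 0.1, no TMM, no filter, the replicate block, counts divided by 4, and leaving out each library. Depth was 42.1 to 68.8 M estimated counts per library.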

Additional observations from a re-analysis of the deposited data

How the results depend on the processing

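The counts of called members in the E2, ICI and Tamo comparisons were 0 under every alternative run, including the replicate block and each left-out library (0 to 0), and so were not moved by the pairing. For SH against NC, 11 members passed, and the replicate block gave 19. The numbers pair these samples only in part. Over SH and ICI against NC together, 22 of 24 checks found the best correlation at a library's own number, with each library pair checked from both sides. The exceptions, SH_E2 replicate 2 and NC_E2 replicate 3, were both between SH_E2 and NC_E2. This is a hint from the data and not the design. No filter on low values gave 4 members, counts divided by 4 gave 7, SH against NC without E2 alone 2 and with E2 alone 3. Leaving out 1 library gave 6 to 12. For replicate 1 against replicates 2 and 3, 25 passed; no filter gave 12 and leaving out 1 library 16 to 26. For replicate 2 against replicate 3, 15 passed; no filter gave 5 and leaving out 1 library 11 to 20. With DESeq2 these 3 comparisons gave 14, 26 and 11 calls, with limma at a pseudocount of 1 they gave 11, 29 and 18, and without TMM 8, 24 and 15. With the 17 members at 2 levels left out they gave 11, 24 and 13. The share of all genes called under each alternative fit is not given, so these counts, here and above, are not set against a background. The 2 separate comparisons of SH with NC and the omission of the 17 members were chosen after seeing the data. Of 1343 results for single members under alternatives, 1280 kept direction and side of the threshold, 60 lost the call and 3 turned direction. The 3 were E2 log2 fold changes: over left-out libraries, Gm24134 in SH lay between -0.093 (without SH_E2 replicate 1) and 4.28, Snord35b in ICI between -0.11 (without ICI_E2 replicate 3) and 3.70, and the short Gm26457 entry in Tamo between -0.070 (without Tamo_E2 replicate 2) and 3.25. Each rests on the 1 library named. Over the alternatives of SH against NC, the adjusted p was at most 0.000457 for Gm24452 and 0.00339 for Snora31. Gm22027 lost its call with no filter (adjusted p 0.0539) and with counts divided by 4 (0.246), and Gm23245 likewise (0.196 and 0.103). Depth limits many members: 65 of 144 had a median count under 12.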
